A study of Mus musculus with 20 samples.

Results

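The Ikaros family of zinc-finger transcription factors was examined in murine T lineage acute lymphoblastic leukemias (T-ALLs). Its members were taken as the rows of the expression table whose Ensembl identifiers map to the mouse symbols Ikzf1 (Ikaros), Ikzf2 (Helios), Ikzf3 (Aiolos), Ikzf4 (Eos) and Ikzf5 (Pegasus). All 5 were found among 39017 genes, and 4 of them passed the minimum of 1 FPKM (fragments per kilobase of exon and per M fragments counted, where M is 1000000, averaged over libraries) that left 11339 genes for testing. Ikzf4 did not pass it.

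The leukemias arose in C57Bl/6 x 129Sv/Jae F1 mice infected with MOL4070LTR, a retrovirus that mutates genes by integrating near or within them. The leukemia cells were transplanted into irradiated F1 recipients, so each leukemia is 1 transplanted tumor and the bone marrow from which RNA was taken can also hold recipient cells. The table holds 10 leukemias with 2 libraries each. The libraries of a leukemia differ in the letters VEH or DEX in their column names, which neither the labels nor the study explain, and no dose or time is given for them. The study describes 9 of the leukemias. By its own DNA analysis, 20M, 73M, 78A and JW81 had a retroviral integration in Ikzf1, 8633 had a copy-number loss of Ikzf1, and 2M, 73A, 5C and JW14 had neither. The study also reports missense or truncating mutations of Ikzf1 in some of its leukemias, and the groups here were made by integration alone. Leukemia 4638 is not described, so its values are given beside those of the other 9 and it entered a test only where the paired comparison was repeated with it added.

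Ikaros proteins bind DNA through a group of zinc fingers near the amino terminus and pair with each other through fingers at the carboxyl terminus. They recruit chromatin remodelers and corepressors, including the NuRD complex, and direct the development of lymphocytes. Ikzf1 is a tumor suppressor in lymphoid leukemia, and loss of Ikaros in developing T cells is known to raise the expression of Notch target genes. Helios is best known in regulatory T cells and in early T cell development, Aiolos in B cells and late thymocytes, and Eos in regulatory T cells, while Pegasus is the most divergent member.

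The coding stretch of the second amino-terminal zinc finger is shown because it makes the relatedness of the members visible and bears on whether reads can be told apart between them. Each run begins at the first cysteine codon and ends at the last histidine codon, on the coding strand 5′ to 3′, from the GENCODE M21 transcript with the longest coding sequence (GRCm38, the assembly also called mm10). Capitals mark the codons of the cysteines and histidines that hold the zinc ion.
Ikzf1: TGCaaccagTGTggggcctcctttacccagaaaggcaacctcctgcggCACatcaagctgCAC
Ikzf2: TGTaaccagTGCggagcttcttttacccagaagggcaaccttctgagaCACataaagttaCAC
Ikzf3: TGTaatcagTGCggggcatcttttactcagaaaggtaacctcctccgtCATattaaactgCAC
Ikzf4: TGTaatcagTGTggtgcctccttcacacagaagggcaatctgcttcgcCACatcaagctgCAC
Ikzf5: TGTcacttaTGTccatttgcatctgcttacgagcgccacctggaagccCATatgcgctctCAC

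These runs lie at chr11:11754024-11754086 (plus strand, exon 6 of Ikzf1), chr1:69570581-69570643 (minus strand, exon 5 of Ikzf2), chr11:98488940-98489002 (minus strand, exon 5 of Ikzf3), chr10:128640229-128640291 (minus strand, exon 5 of Ikzf4) and chr7:131392501-131392563 (minus strand, exon 4 of Ikzf5). The stretches of Ikzf1, Ikzf2, Ikzf3 and Ikzf4 encode the same 21 residues, yet 48 to 53 of their 63 bases matched between any pair. Ikzf5 matched the other members at 26 to 30 of 63 bases and at 5 of 21 residues. These residues include the zinc-binding cysteines and histidines, which the search for fingers required. Fingers were compared by their order in each protein. A search of the translated coding sequences for the pattern of a C2H2 finger found 5 fingers in each of Ikzf1 to Ikzf4 and 4 in Ikzf5. Thus in this finger the nucleotide sequences of Ikzf1 to Ikzf4 differed at 10 or more positions although their residues were the same, and fragments were assigned over whole transcripts.

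Ikzf1 was the most abundant member in every library. It lies at chr11:11685003-11772926 on the plus strand, and its level averaged 108.0 FPKM ± 34.7 (SD, n = 9 leukemias, the libraries of each averaged). In the VEH libraries, Ikzf1 measured 102 FPKM in 73M, 112 in 73A, 69.7 in 78A, 158 in 20M and 90.6 in 2M, and it measured 89.3 in 5C, 106 in 8633, 104 in JW14 and 47.1 in JW81. In the DEX libraries it measured 142.8 FPKM in 73M, 160.0 in 73A, 77.2 in 78A, 175 in 20M, 98.7 in 2M, 103 in 5C, 115.9 in 8633, 141 in JW14 and 51.6 in JW81. Leukemia 20M was highest and JW81 lowest on both sides, with a ratio of 3.38 between their means. In the order of means, JW81 lay apart from 78A, 78A from 2M, and 5C from 8633, while the other 5 pairs of neighbours overlapped in their libraries. Leukemia 4638 had 95.6 FPKM in VEH and 86.7 in DEX, within the range of the other 9.

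**Figure D1:**
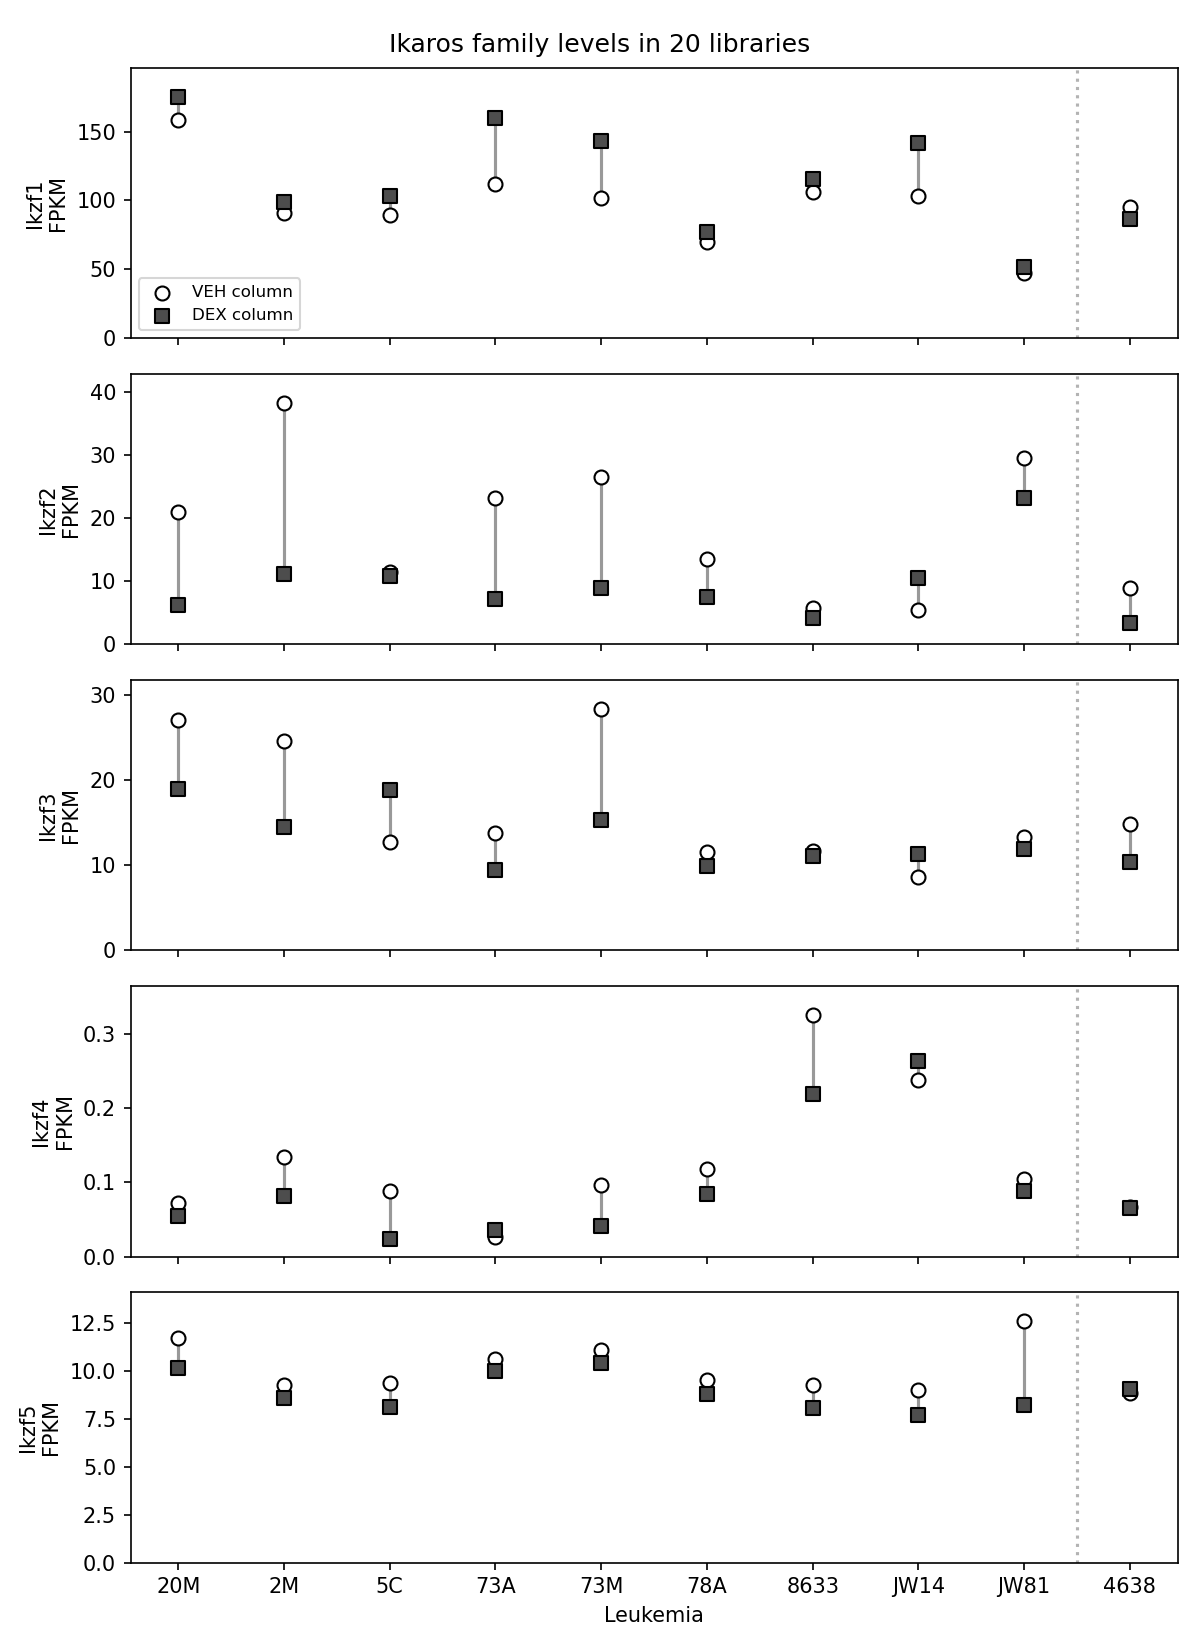
Level of each member in FPKM (y axis, linear from 0) in the 20 libraries, with the leukemias on the x axis; open circles are VEH libraries and filled squares DEX libraries, and a line joins the libraries of a leukemia. Ikzf1 is at 47.1 to 175 FPKM in the 9 described leukemias while Ikzf4 stays at or under 0.326 FPKM, and for Ikzf2 the DEX square lies under the VEH circle in every leukemia but JW14.

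Ikzf2 (chr1:69531214-69687245, minus strand) ranged from 4.23 to 38.3 FPKM over the 18 libraries and averaged 14.7 FPKM ± 7.24 (SD, n = 9). In the VEH libraries it measured 26.5 FPKM in 73M, 23.3 in 73A, 13.6 in 78A, 21.03 in 20M, 38.3 in 2M, 11.5 in 5C, 5.71 in 8633, 5.45 in JW14 and 29.6 in JW81. The DEX libraries had 8.91 FPKM in 73M, 7.15 in 73A, 7.56 in 78A, 6.25 in 20M, 11.2 in 2M, 10.8 in 5C, 4.23 in 8633, 10.5 in JW14 and 23.3 in JW81. JW81, the leukemia with the least Ikzf1, had the highest mean for Ikzf2, and 8633 the lowest. No neighbours in the order of means lay apart, since their libraries overlapped.

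Ikzf3 (chr11:98464902-98546031, minus strand) averaged 15.2 FPKM ± 5.08 (SD, n = 9). In the VEH libraries it measured 28.4 FPKM in 73M, 13.9 in 73A, 11.6 in 78A, 27.1 in 20M and 24.6 in 2M, 12.7 in 5C, 11.7 in 8633, 8.63 in JW14 and 13.4 in JW81. In the DEX libraries it measured 15.3 FPKM in 73M, 9.44 in 73A, 9.99 in 78A, 19.03 in 20M, 14.5 in 2M, 18.9 in 5C, 11.1 in 8633, 11.3 in JW14 and 11.96 in JW81. Leukemias 20M, 73M and 2M had the highest means and JW14 the lowest, and none of the 8 pairs of neighbours lay apart.

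Ikzf5 (chr7:131388652-131410521, minus strand) was the steadiest member that passed the filter, with a mean of 9.59 FPKM ± 1.00 (SD, n = 9) and a ratio of 1.31 between the highest and lowest leukemia. Over the 18 libraries it ranged from 7.69 to 12.6 FPKM. Ikzf4 (chr10:128630843-128645991, minus strand) was read at counts of 2 or more per library and at 0.0234 to 0.326 FPKM. Leukemias 8633 and JW14 stood above the other 7 for Ikzf4, at means of 0.273 and 0.251 FPKM against 0.108 FPKM or less, and 1 library, 73A VEH with 2 counts, was within the limit that a count of 0 allows (3 counts). In leukemia 4638 the VEH and DEX libraries had 8.95 and 3.44 FPKM of Ikzf2, 14.9 and 10.4 of Ikzf3, 0.0665 and 0.0656 of Ikzf4, and 8.83 and 9.07 of Ikzf5.

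Per length of merged exons, Ikzf1 exceeded Ikzf2 by a median ratio of 9.20, Ikzf3 by 7.38 and Ikzf5 by 11.4 over the 18 libraries. The distance between Ikzf2 and Ikzf3 depended on the length used, and Ikzf2 was the higher of them in 5 of 18 libraries with merged exons and in 2 of 18 with the longest coding transcript. The merged exons of Ikzf3 span 8754 bases, while its longest coding transcript has 3658 bases. With the length of the longest coding transcript of each gene, the mean level of Ikzf3 was 36.4 FPKM against 18.4 for Ikzf2, and Ikzf1 exceeded Ikzf3 by a median ratio of 3.45. Ikzf1 was the highest and Ikzf4 the lowest member in 18 of 18 libraries on either length.

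Differences between leukemias were then set against the difference between the libraries of a leukemia, with VEH or DEX as a term (quasi-likelihood F test of edgeR). Of 11339 genes, 9351 passed at an adjusted p under 0.05 (82.5%), so that passing was the usual result. Ikzf1 passed with an edgeR adjusted p of 6.94e-06, Ikzf3 with 0.00986 and Ikzf2 with 0.0301, and Ikzf5 did not (edgeR adjusted p = 0.0725). Ikzf5 passed with DESeq2 (adjusted p = 0.0275), without 73A (edgeR adjusted p = 0.0493) and without JW81 (edgeR adjusted p = 0.0311). The call of Ikzf2 was lost without 8633 (edgeR adjusted p = 0.124) or without JW81 (edgeR adjusted p = 0.114), the leukemias at either end of its range.

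Across the 9 leukemia means, the levels of Ikzf1 and Ikzf2 had a Pearson r of -0.46 on the log2(FPKM + 1) scale, and the other pairs had r between 0.18 and 0.55. These are descriptions over 9 points that share libraries and depth. The genes whose levels were most like those of Ikzf1 were Gcc2 (r = 0.95), Zfp74 (r = 0.94) and Gm9392 (r = 0.91). Rab3ip (r = 0.94), Nfkb2 (r = 0.93) and Ralb (r = 0.93) were most like Ikzf2; Nfkb2 encodes a subunit of NF-kB and Ralb a small GTPase. Pik3c2b (r = 0.94), Otud7b (r = 0.92) and BX649560.1 (r = 0.90) were most like Ikzf3, and Rbm41 (r = 0.99), Vamp2 (r = 0.98) and Rsbn1l (r = 0.98) most like Ikzf5. With 9 points and 11339 genes, r over 0.9 was reached by 6 genes for Ikzf1, 12 for Ikzf2, 7 for Ikzf3 and 70 for Ikzf5.

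The Ikzf1 integrations of 20M, 73M, 78A and JW81, which the study predicts to disrupt the coding region, were set against the level of Ikzf1 RNA. The leukemias with an integration held both ends of the range. Ikzf1 averaged 49.3 FPKM in JW81, 73.4 in 78A, 122 in 73M and 167 in 20M, a mean of 103 FPKM ± 52.3 (SD, n = 4). The 5 leukemias without an integration lay between 94.6 FPKM in 2M and 136 in 73A, with a mean of 112 FPKM ± 17.5 (SD, n = 5). Leukemia 8633, with its copy-number loss, had 111 FPKM, in the middle of the 9. The groups overlapped, and the difference of -0.25 in mean log2(FPKM + 1) was within the spread between leukemias (2-sided exact permutation test, p = 0.492; the smallest p that this design allows is 0.0159). Without JW81 the difference was 0.05 and without 20M it was -0.53. The counts are per gene, so shortened transcripts, fusions with viral sequence and the 2 alleles were not told apart.

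**Figure D2:**
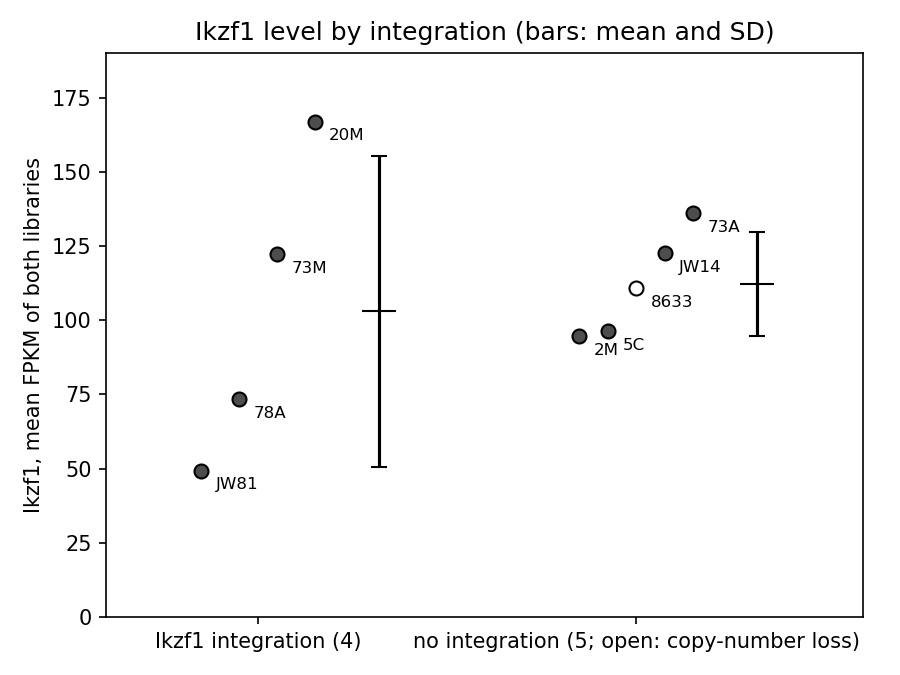
Mean Ikzf1 level of both libraries of each leukemia in FPKM (y axis, from 0), for the 4 leukemias with an Ikzf1 integration and the 5 without; the bars give the mean and SD of each group and the open circle is 8633, with a copy-number loss. The 4 leukemias with an integration run from 49.3 to 167 FPKM and span the range of the 5 without, 94.6 to 136 FPKM.

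In the fit over all genes, on counts summed for each leukemia, 1 of 11339 genes passed between the integration groups (0.00882%), and it was no member. That gene was Susd4, named because it was the only one. Its leukemia means were 1.03 to 13.6 FPKM with an integration and 0.00795 to 0.0309 FPKM without (edgeR adjusted p = 0.0324). The call was lost without 2M, 73M, 78A, 8633 or JW14. Susd4 passed the filter on mean FPKM only through the leukemias with an integration, since the others had 0 to 4 counts per library. Ikzf1 differed by -0.22 on the log2 scale (SE 0.30, edgeR adjusted p = 0.770). Ikzf2 was 0.78 higher with an integration (SE 0.44, edgeR adjusted p = 0.502), Ikzf3 0.46 higher (SE 0.32, edgeR adjusted p = 0.569) and Ikzf5 0.20 higher (SE 0.10, edgeR adjusted p = 0.483). Summed counts weight the libraries of a leukemia by depth: the VEH library of 73M was the deepest of all, while in 2M, 5C and 73A the DEX library was the deeper. In VEH libraries alone the differences were -0.12 for Ikzf1, 0.42 for Ikzf2 and 0.47 for Ikzf3, and in DEX libraries alone they were -0.14, 0.45 and 0.12. Without 73M Ikzf3 was at 0.23. With DESeq2, 134 genes passed and again no member did. The leukemia means of Ikzf5 were 10.3 FPKM ± 0.797 (SD, n = 4) with an integration and 9.001 ± 0.753 (SD, n = 5) without, and the groups overlapped.

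The genes around Ikzf1 were read because a retroviral integration can also act on neighbours. Of 8 other protein-coding genes within 500 kb on chromosome 11, 4 passed the filter and none of these passed the test. Fignl1, which encodes a protein of DNA repair, had 14.2 to 15.5 FPKM in the 4 leukemias with an integration and 15.1 to 29.1 in the 5 without (edgeR adjusted p = 0.483). The uncharacterized gene 4930512M02Rik had 15.3 to 34.8 FPKM with an integration and 7.53 to 35.8 without (edgeR adjusted p = 0.683). Zpbp had 1.68 to 2.91 FPKM and Ddc, the aromatic amino acid decarboxylase, 0.213 to 9.02 FPKM over the 9 leukemias. No leukemia with an integration was the highest of the 9 for Fignl1, 4930512M02Rik or Ddc, whereas JW81 was the highest for Zpbp.

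For the 8 genes that Ikaros is known to repress in T cells (Hes1, Dtx1, Notch3, Ptcra, Il2ra, Dntt, Nrarp and Heyl), the fitted differences all lay on the side of higher expression with an integration, with a median of 1.81 on the log2 scale against -0.0015 over all genes, and 0 of 8 passed the test. Marker lists of other cells lay on the same side in this comparison, with a median of 2.47 over 4 tested erythroid genes, 1.81 over 2 regulatory T cell genes, 0.18 over 6 myeloid genes and a value of 2.25 for Cd79b, the only B lineage gene tested. The median was 0.53 over 12 T lineage genes and -0.08 over 2 NK genes, and none of these genes passed. The erythroid and Cd79b values rest on 73M. The mean log2(FPKM + 1) of the erythroid genes was 3.43 in 73M but 0.500, 0.858 and 0.750 in 20M, 78A and JW81, against 0.312 to 2.32 without an integration. Cd79b averaged 7.99 FPKM in 73M but 0.433 to 0.652 in the other 3, against 0.0925 to 2.72 without an integration. The regulatory T cell value was the median of Ctla4 at 3.03 and Tnfrsf18 at 0.60. Ctla4 averaged 12.3 FPKM in JW81 and 2.61 in 73M but 0.187 in 20M and 0.230 in 78A. Without an integration Ctla4 averaged 0.0827 to 0.892 FPKM. Dtx1, a NOTCH target that encodes an E3 ligase, shows the spread. It averaged 42.9 to 119 FPKM in the leukemias with an integration, 90.0 in 2M and 55.9 in 73A, but 0.163 in 5C, 0.157 in 8633 and 0.166 in JW14, so of the 5 leukemias without an integration 2 lay within the range of those with one and 3 far below it. Most genes of this list are also known NOTCH targets. The part of NOTCH in these values was not tested.

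The paired comparison of DEX and VEH libraries within leukemias asked which members moved the same way in all of them. Ikzf1 was higher in the DEX library in 9 of 9 leukemias, by 0.31 on the log2 scale (SE 0.060, edgeR adjusted p = 0.00905). In the fit with leukemia as a block, 1475 of 11339 genes passed (13.0%), 705 higher in DEX (6.22%) and 770 lower (6.79%); 676 to 966 passed without any 1 of 20M, 2M, 73A, 73M or JW81. The ratio of DEX to VEH FPKM for Ikzf1 was smallest in 2M (1.09) and largest in 73A (1.43), and the change exceeded its spread between leukemias. It stayed past the test without any 1 leukemia (edgeR adjusted p of 0.00944 to 0.0268), but not in the 4 leukemias without a library with ribosomal RNA counts or in the 5 with one (edgeR adjusted p = 0.123 in each). In leukemia 4638 the ratio went the other way, at 0.908.

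Ikzf2 was lower in DEX in 8 of 9 leukemias and higher in JW14, by -0.81 on the log2 scale (SE 0.26), and missed the threshold (edgeR adjusted p = 0.0608). It passed under 6 alternatives, among them DESeq2 (adjusted p = 0.0387), without 5C (edgeR adjusted p = 0.0408) and without JW14 (edgeR adjusted p = 0.0165). Ikzf3 differed by -0.20 (SE 0.14, edgeR adjusted p = 0.335), with 7 leukemias lower and 2 higher. Ikzf5 differed by -0.16 (SE 0.055, edgeR adjusted p = 0.0768) and passed with DESeq2 (adjusted p = 0.0497); it was lower in all 9 leukemias by FPKM and in 8 of 9 after TMM scaling (trimmed mean of M values), where 73M was at 0.0097. Ikzf4, below the filter, was at -0.52 in the fit without a filter (SE 0.26, edgeR adjusted p = 0.299).

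The size of the Ikzf2 change varied more between leukemias than that of any other member that passed the filter. By FPKM, the DEX library held 0.297 of the VEH level of Ikzf2 in 20M, 0.292 in 2M, 0.939 in 5C, 0.307 in 73A, 0.336 in 73M, 0.556 in 78A, 0.741 in 8633, 1.92 in JW14 and 0.787 in JW81. The ratio was lowest in 2M, near 1 in 5C and above 1 in JW14. On the TMM-scaled log2 scale the changes averaged -0.79 ± 0.93 (SD, n = 9). In leukemia 4638 the ratio was 0.384, within the range of the other 9.

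For Ikzf3 the ratio of DEX to VEH FPKM was 0.702 in 20M, 0.590 in 2M, 1.49 in 5C, 0.681 in 73A, 0.539 in 73M, 0.862 in 78A, 0.949 in 8633, 1.32 in JW14 and 0.894 in JW81. Leukemias 5C and JW14 were above 1 and the other 7 below it, and the changes averaged -0.20 ± 0.48 (SD, n = 9) on the TMM-scaled log2 scale. The changes were 0.31 ± 0.17 (SD, n = 9) for Ikzf1 and -0.16 ± 0.15 (SD, n = 9) for Ikzf5, a smaller spread than for Ikzf2 and Ikzf3.

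**Figure D3:**
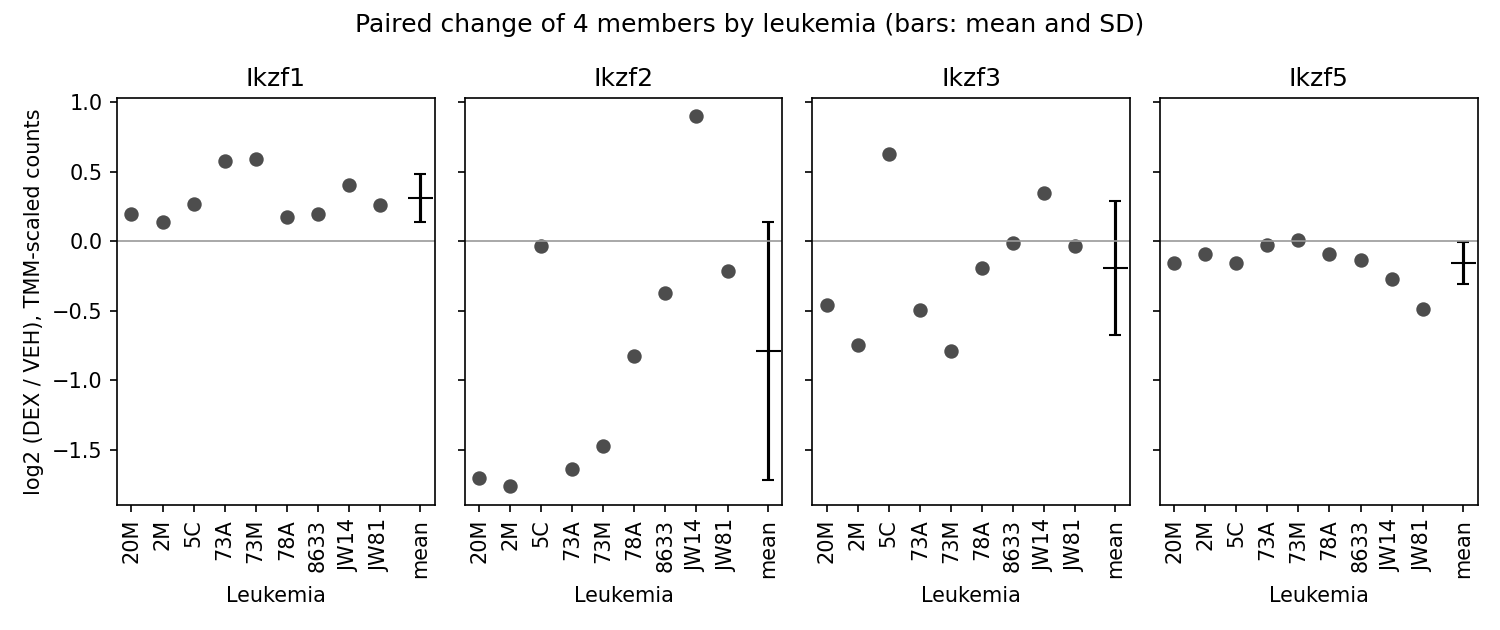
Change from VEH to DEX in each of the 9 leukemias (x axis) as log2 of the ratio of TMM-scaled counts (y axis), for 4 members; each point is a leukemia, and the bar at the right of each panel gives the mean and SD (n = 9). The Ikzf1 points all lie above 0, between 0.14 and 0.59, while those of Ikzf2 run from -1.76 in 2M to 0.90 in JW14.

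Over 1 count per M from ribosomal RNA genes was seen in 1 VEH library, that of 5C, and in 4 DEX libraries, those of JW81, JW14, 73M and 20M, so it moved with the columns compared. With a term for these libraries the change was 0.29 for Ikzf1 (edgeR adjusted p = 0.0378), -0.79 for Ikzf2 (edgeR adjusted p = 0.146), -0.12 for Ikzf3 (edgeR adjusted p = 0.690) and -0.13 for Ikzf5 (edgeR adjusted p = 0.235). In the 5 leukemias with such a library alone Ikzf2 differed by -0.52 between DEX and VEH (edgeR adjusted p = 0.416) and in the other 4 alone by -1.16 (edgeR adjusted p = 0.0353), and the difference between these subsets was not tested.

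Marker genes of other blood cells were read beside these changes, since Ikaros family genes are active in B cells and other marrow cells and a changed cell mixture cannot be told apart from changed RNA per cell in bulk samples. The mean log2(FPKM + 1) of 9 B lineage genes was 0.084 to 1.07 over the 9 leukemias. It fell by 0.992 from VEH to DEX in 73M, and Cd79b, a part of the B cell receptor, went from 13.3 to 2.64 FPKM there. Pax5, which defines B cells, was highest in the VEH library of 73M at 0.756 FPKM. Without 73M the DEX change was -0.72 for Ikzf2 (edgeR adjusted p = 0.130). The mean of 6 erythroid genes changed between -2.55 in 73M and 0.346 in JW81, with -1.03 in 73A. The 11 myeloid genes had a mean of 0.592 to 2.92, which changed between -0.693 in 73M and 0.305 in 78A, with -0.687 in JW81. The 4 NK genes had a mean of 0.301 to 0.899, which changed between -0.436 in 73M and 0.050 in 5C, with -0.384 in 20M. In the paired fit the median change was -0.37 over the 6 tested myeloid genes, -0.44 over the 4 tested erythroid genes and -0.49 over the 2 tested NK genes, and Cd79b was at -0.63, against a median of 0.0039 over all genes. Each of these genes had a fitted change below 0. The 3 regulatory T cell genes had a mean of 0.558 in 5C to 2.00 in JW81, the leukemia with the highest mean of Ikzf2. This mean changed between -0.110 in 5C and 0.877 in JW81, where Ctla4 went from 2.96 to 21.7 FPKM. The mean of 12 T lineage genes was 4.37 to 5.77, the highest means of the marker lists read. In the paired fit, which called 13.0% of all tested genes, Cd5 alone of these 12 passed, lower in DEX (-0.62, edgeR adjusted p = 0.0108). Of the other marker lists, Itgam fell (-0.47, edgeR adjusted p = 0.0369) among 6 tested myeloid genes, Ctla4 rose (1.35, edgeR adjusted p = 0.0300) among 2 tested regulatory T cell genes, and none passed among 1 tested B lineage, 4 erythroid and 2 NK genes. Foxp3, which marks regulatory T cells, was at 0.0647 to 0.463 FPKM in all 18 libraries. Its lowest value was in the VEH library of JW81, and the DEX library of JW81 had 0.202 FPKM. In JW81 the Ikzf2 level was lower in DEX, at 23.3 against 29.6 FPKM, while the mean of the regulatory T cell genes was higher. The part of other cells in the changes of Ikzf2 and Ikzf3 was not tested further.

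The DEX changes of leukemias with and without an Ikzf1 integration overlapped for each of the 4 members tested. No gene passed this interaction in edgeR (0 of 11339, 0%; 290 genes had an unadjusted p under 0.05), and DESeq2 called 2; without JW14 edgeR called 22. The difference was -0.01 for Ikzf1 (SE 0.12), -0.46 for Ikzf2 (SE 0.53), -0.31 for Ikzf3 (SE 0.27) and -0.05 for Ikzf5 (SE 0.12), each with an edgeR adjusted p of 0.996.

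Genes that work with Ikaros were read against the 13.0% of all tested genes that passed the paired test. Of 13 NuRD subunits 1 passed, Mta1, which was 0.20 higher in DEX (SE 0.054, edgeR adjusted p = 0.0313), and the median change was 0.033 against 0.0039 over all genes. Chd4, the remodeling ATPase of NuRD, was abundant at a mean of 97.2 FPKM and differed by 0.026 (edgeR adjusted p = 0.742). None passed among 3 tested corepressors (Sin3a, Sin3b and Ctbp1; median 0.049), 6 subunits of casein kinase 2 and protein phosphatase 1, which set Ikaros phosphorylation (median 0.067), or 5 subunits of the cereblon ubiquitin ligase, through which thalidomide analogs degrade human Ikaros and Aiolos (median 0.068). Of the 8 genes that Ikaros is known to repress, 2 fell and none rose, with a median of -0.24, where 6.79% of all tested genes were called lower and 6.22% higher. Il2ra, a receptor chain for interleukin 2, fell by 0.96 on the log2 scale (SE 0.20, edgeR adjusted p = 0.0115) and Dntt, the terminal transferase of immature lymphocytes, fell by 0.86 (SE 0.22, edgeR adjusted p = 0.0259).

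Il2ra was at or under 0.445 FPKM in both libraries of 5C, 8633 and JW14. In the other 6 leukemias it had 45.98 to 145 FPKM in the VEH and 23.5 to 74.5 in the DEX libraries, and the DEX library was the lower in each of them.

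**Figure D4:**
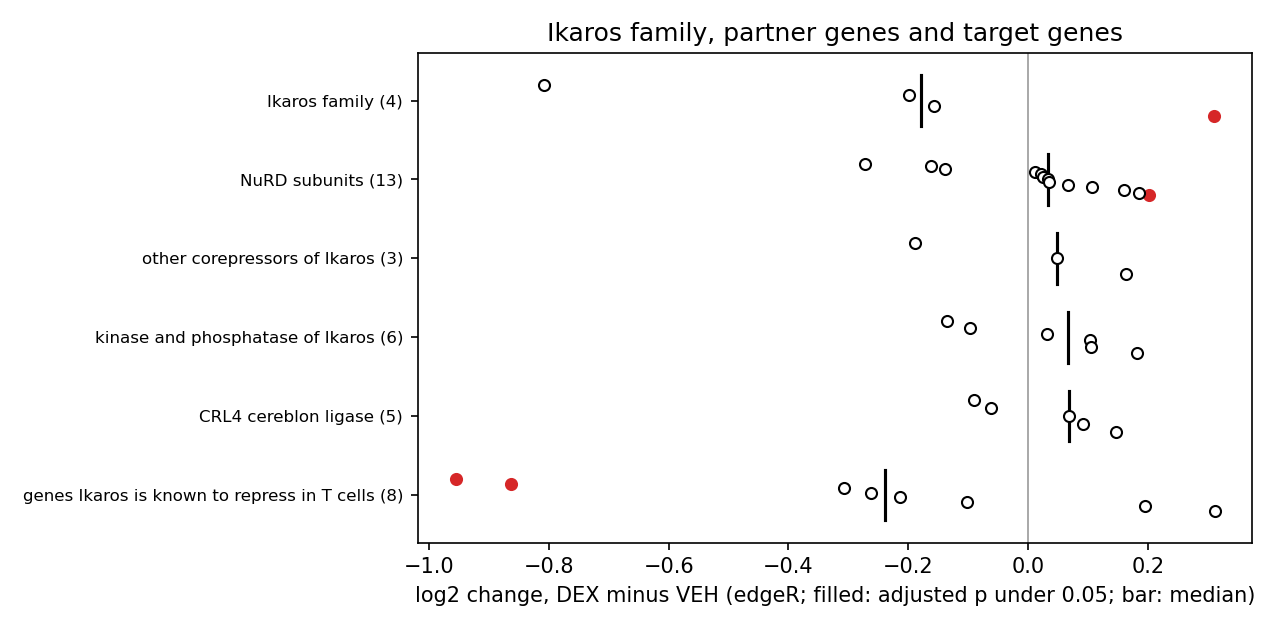
Fitted log2 change from VEH to DEX (x axis) of the tested genes of 6 lists (y axis, number of tested genes in brackets); filled points have an edgeR adjusted p under 0.05 and each vertical bar is a list's median. Ikzf1, Mta1, Il2ra and Dntt are filled, and Ikzf2 at -0.81 is the lowest open point.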

How the data were processed

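Expected counts per Ensembl gene were deposited by the authors, who made them from poly(A) RNA of leukemic bone marrow with TruSeq libraries, paired-end sequencing, Bowtie 2 and RSEM on mm10 (per the labels and the study's methods). The aligner's settings and annotation are not given in the sources used here. Total expected counts ranged from 8.23 M to 201 M per library, where M is 1000000 (median 24.5 M), and the next deepest library had 39.8 M. The names of 3 columns, the DEX columns of 2M, 73A and 4638, ended in an identifier that no sample title had. These columns were assigned to their leukemia by its name and the middle part of the column name, and could not be matched to a sample. The DEX libraries of 2M and 73A entered the paired tests all the same. Counts were rounded and tested with edgeR 4.0.16 (TMM, quasi-likelihood, Benjamini-Hochberg over 11339 genes) in R 4.3.3, with DESeq2 1.42.0 as an alternative. FPKM was computed from merged GENCODE M21 exons, with a pseudocount of 1 before logarithms. Genes under a mean of 1 FPKM were left out. Pairing comes from the shared leukemia: deviations of the VEH and DEX libraries of a leukemia correlated at 0.58 to 0.91, and 9 of 9 correlated best with their own. Separate cultures or mice for the libraries of a leukemia are not stated, so the leukemia was the replicate. Integrations came from the study's mutation overview, not the labels. A further trait of the leukemias, and the comparisons and alternative settings that need it, are not reported here. Genes were named as the 5 members, the list genes past the test, the 3 genes most like each member over leukemia means, and the coding genes within 500 kb of Ikzf1; examples beyond these were chosen after their values were seen. The members and lists were chosen with earlier results of these data known. Limits from a count of 0 use 3 counts and cover counting error only.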

Additional observations from a re-analysis of the deposited data

Results flagged for a closer look

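The undescribed leukemia 4638, which entered only the paired fit with 4638 added, held reads of all 5 members above the limit that a count of 0 allows. Its mean level was 91.2 FPKM for Ikzf1, 6.19 for Ikzf2, 12.7 for Ikzf3, 0.0661 for Ikzf4 and 8.95 for Ikzf5. Its mean log2(FPKM + 1) over 9 B lineage genes was 1.88, above the 0.084 to 1.07 of the other 9 leukemias. It was also above them for the myeloid (4.33 against at most 2.92), erythroid (4.12 against at most 3.43) and NK lists (1.78 against at most 0.899), and below them for the T lineage list (3.54 against at least 4.37).

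In 20 groups of values (levels and changes of the 5 members over 9 leukemias, and levels within the integration groups) no leukemia stood apart from the rest by the Dixon test.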

How the results depend on the processing

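The number of genes passing between DEX and VEH was 1475. It was 676 to 2041 when leukemias were left out in turn, 465 with a term for libraries with ribosomal RNA counts, 476 in the 4 leukemias without such libraries and 15 in the other 5. Without the replicate block 8 genes passed, and Ikzf1 was at 0.33 (edgeR adjusted p = 0.946). Ikzf1 was higher in DEX under all 17 alternatives (0.27 to 0.34), and its call was lost in 3: without the block, and in the 4 and the 5 leukemias split by ribosomal RNA counts (edgeR adjusted p = 0.123 in each).

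Between integration groups 1 gene passed, 0 to 1 with leukemias left out, 134 with DESeq2, 2 without a filter, and 0 without 8633, in VEH or in DEX libraries alone. The difference in Ikzf1 level ranged from -0.53 to 0.045 with leukemias left out. For the integration interaction 0 passed, 0 to 22 with leukemias left out, 2 with DESeq2 and 15 without a filter; its Ikzf1 difference was -0.11 to 0.052 and its Ikzf5 difference -0.11 to 0.056 with leukemias left out, and 0.011 for Ikzf5 with the ribosomal RNA term. The cause of these shifts was not tested. Fits with fewer leukemias have fewer degrees of freedom. The integration interaction, the 5 leukemias with ribosomal RNA counts alone, the fit with 4638 and the transcript lengths were chosen after seeing the data.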
